A study of Saccharomyces cerevisiae with 42 samples.

Results

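Cyclins are the activating subunits of cyclin-dependent kinases, and the 10 described here are the budding yeast genes CLN1, CLN2, CLN3, CLB1, CLB2, CLB3, CLB4, CLB5, CLB6 and PCL1. They were chosen by name, as the rows of the deposited expression table whose gene identifier belongs to one of these symbols in the R64 annotation, a rule that uses no measured value. All 10 were found among the 6106 genes of the table, and all 10 were among the 5983 genes tested, those that averaged 1 TPM or more (transcripts per 1000000) from 1 to 6 h. The RNA came from BY4741 (MATa, with met15-Δ0, ura3-Δ0, leu2-Δ0 and his3-Δ1), a haploid laboratory strain that was prototrophic through the pHLUM plasmid in every culture, vehicle included. Saturated overnight cultures were diluted to an A600 of 0.15 in synthetic complete medium at 30°C, with 0.3% ethanol alone (vehicle) or with 700 ng/ml of myriocin (Myr) in 0.3% ethanol. Myriocin inhibits serine palmitoyltransferase, the enzyme that opens sphingolipid synthesis. Libraries were made hourly from 0 to 6 h of each treatment, with 3 libraries in each of the 14 groups and 42 in all.

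Cyclin abundance drives the yeast division cycle because the kinase Cdc28 (Cdk1) is inactive without a cyclin. Cln3 acts first, in G1, where Cln3-Cdc28 relieves the inhibition of the transcription factors SBF (Swi4-Swi6) and MBF (Mbp1-Swi6) by Whi5. SBF and MBF then transcribe CLN1 and CLN2, whose products drive budding and the removal of the Cdk1 inhibitor Sic1, along with PCL1, a cyclin of the kinase Pho85, and CLB5 and CLB6, whose products start DNA replication. Clb3 and Clb4 take part in forming the mitotic spindle. Clb1 and Clb2 drive mitosis and are transcribed by Mcm1, Fkh2 and Ndd1, and mitotic exit requires that the Clb proteins be destroyed. Cells leaving stationary phase after dilution into fresh medium start from an arrest before budding, so their first divisions can be partly in step. A whole-culture level then follows how many cells are in each phase, and more cells in a phase cannot be told apart from more transcript in each cell.

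Stretches upstream of 6 of the members that had called steps between 2 and 4 h in both treatments are shown so that the early and the mitotic genes can be set side by side. They are R64 sequence, written 5′ to 3′ along the strand of the gene, with capitals marking matches to the letters that the factors named above are known to bind. In CLN1, CLN2, PCL1 and CLB6 the capitals are SCB (CACGAAA or CGCGAAA, bound by SBF) or MCB (ACGCGT, bound by MBF) matches on either strand. In CLB1 and CLB2 they are an Fkh match (GTAAACA, read here on the other strand) followed by an Mcm1 match (CCNNNNNNGG).
CLN1, chrXIII:662028-662053, plus strand: cctgcaagagACGCGTtcaaggaaga
CLN2, chrXVI:67136-67230, minus strand: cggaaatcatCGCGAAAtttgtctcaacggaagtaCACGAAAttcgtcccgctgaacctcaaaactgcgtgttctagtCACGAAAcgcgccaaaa
PCL1, chrXIV:87560-87619, plus strand: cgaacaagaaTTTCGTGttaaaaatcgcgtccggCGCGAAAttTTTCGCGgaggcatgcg
CLB6, chrVII:706863-706914, minus strand: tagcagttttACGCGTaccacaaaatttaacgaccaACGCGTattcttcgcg
CLB1, chrVII:702998-703039, plus strand: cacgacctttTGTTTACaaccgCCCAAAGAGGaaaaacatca
CLB2, chrXVI:770879-770923, plus strand: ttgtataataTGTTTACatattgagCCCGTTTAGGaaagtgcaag

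In the 800 bases before the start codon of each of 5997 genes, an SCB or MCB match was found for 23.1% of genes and for 5 of the 10 cyclins. PCL1 and CLN2 had 3 matches each, which 0.584% of genes reached, CLN1 and CLB6 had 2 each and CLB4 had 1. CLB5 and CLN3 had no such match in this window. An Mcm1 match within 25 bases of an Fkh match was found for 1.83% of genes and for CLB1, CLB2 and CLB6. A match of letters is a description and not a measured binding site. The Mcm1 letters alone are common, at 69.7% of genes and 9 of the 10 cyclins.

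Each cyclin gene is a single coding exon. CLB1 (chrVII:703636-705051, plus strand) and CLB6 (chrVII:705359-706501, minus strand) converge with 307 bases between their coding regions. CLB2 (chrXVI:771653-773128, plus strand) and CLB5 (chrXVI:773875-775182, minus strand) converge with 746 bases between them, and no annotated gene lies between either pair. The library kit kept the strand of the RNA. CLN1 (chrXIII:662644-664284, plus strand) and CLN2 (chrXVI:64977-66614, minus strand) share 67.5% of their aligned coding bases. The other paralog pairs share 68.5% (CLB1 and CLB2), 64.8% (CLB3 on chromosome IV and CLB4 on chromosome XII) and 64% (CLB5 and CLB6), and the longest run of identical bases between CLB1 and CLB2 was 17. CLN3 (chrI:65778-67520, minus strand) and PCL1 (chrXIV:87897-88736, plus strand) complete the set.

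The values are TPM as deposited, a length-adjusted share of the transcript pool, so levels may be set side by side between genes, and the read depth behind each library is unknown. In 4 vehicle libraries the ribosomal protein gene RPL41A, which has a near-identical copy, exceeded 70000 TPM (libraries A and B of 3 h, library B of 4 h and library A of 5 h), and vehicle 4 h library B, at 107109 TPM, was the lowest of its group for all 10 cyclins. The deposited columns carry a letter, A to D in vehicle and A to C with Myr, and library values below are given in that order. Per the labels, all hours of a replicate came from 1 flask, so libraries of different hours are not fully independent. Where libraries of a flask are alike, p-values may be too small for averages over the hours and too large for steps between hours. Genes of MATa cells summed to 7017 to 20731 TPM over 6 genes and those of MATalpha cells to 25.8 to 116 TPM over 4, and the strain is labelled MATa. Markers of stationary phase (8 genes) summed to 12078 to 22161 TPM at 0 h and to 570 to 727 TPM at 1 h over both treatments. Differences below are on the log2(TPM + 1) scale from limma, with p-values adjusted over all 5983 genes.

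The levels of 9 of the 10 cyclins differed between hours 1 to 6 (limma's F-test, p of 0.01 or less, a threshold that 86.5% of all genes reached), and CLB3 missed it, with an adjusted p = 0.0201. CLB2 had the widest swing in both treatments. From its lowest to its highest hourly mean, CLB2 changed 2.76-fold in vehicle and 3.93-fold with Myr, CLB6 changed 2.59-fold and 3.14-fold, and CLB1 changed 2.24-fold and 3.27-fold. CLB3 was the flattest, at 1.18-fold and 1.35-fold. The highest hour over 1 to 6 h was the same in both treatments for CLN3 and CLB6 (1 h), for CLN1, PCL1 and CLB3 (2 h) and for CLB1 (3 h). For CLN2, CLB2 and CLB4 it was 6 h in vehicle, and with Myr it was 2 h, 3 h and 2 h respectively. The vehicle means at 6 h were within 1 SD of those at these hours, at 63.4 and 62.7 TPM for CLN2 (2 h), 60.4 and 59.3 TPM for CLB2 (3 h) and 17.3 and 17.2 TPM for CLB4 (2 h). CLB5 was highest at 2 h in vehicle and at 1 h with Myr.

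**Figure D1:**
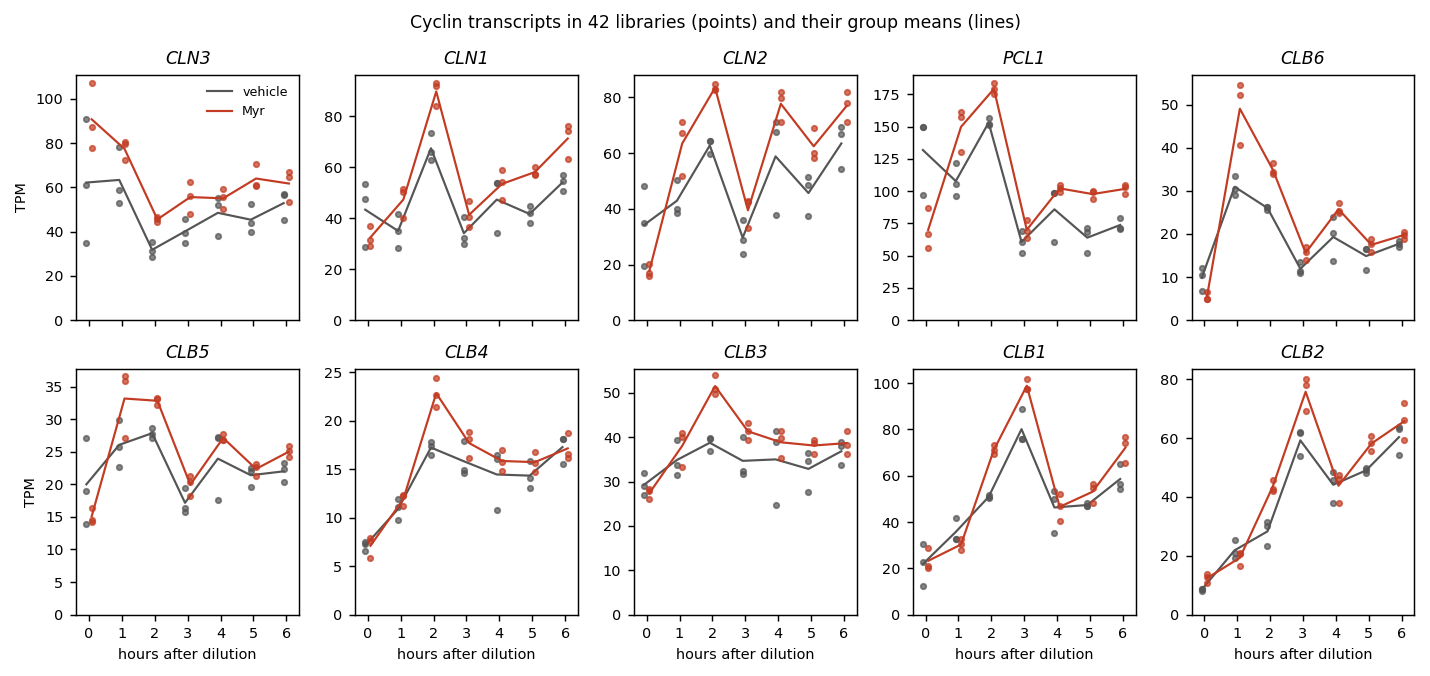
Levels of the 10 cyclins in TPM (vertical axes) against hours after dilution (horizontal axes), with vehicle in grey and Myr in red, 1 point for each of the 42 libraries and lines through the group means. PCL1 and CLN1 peak at 2 h, CLB1 at 3 h and CLB6 at 1 h in both treatments, and from 1 to 6 h the CLB3 means lie between 32.9 and 38.8 TPM (vehicle) or 38.1 and 51.6 TPM (Myr).

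CLN3, the G1 cyclin that starts the cycle, was high early and dropped in the second hour in both treatments. In vehicle it measured 52.9, 58.8 and 78.4 TPM at 1 h and 35.3, 31.4 and 28.8 TPM at 2 h, and with Myr 80.4, 79.6 and 72.3 TPM at 1 h and 44.3, 45.7 and 46.7 TPM at 2 h. The 1 h and 2 h libraries did not overlap in either treatment, and the fall was -0.96 log2 (SE 0.20, adjusted p = 0.000124) in vehicle and -0.75 log2 (SE 0.20, adjusted p = 0.00212) with Myr. At 0 h the vehicle libraries were far apart, at 61.0, 34.9 and 90.7 TPM. From 3 to 6 h all values lay between 35.1 and 56.9 TPM in vehicle and between 48.2 and 70.4 TPM with Myr, and no step between consecutive hours was called there.

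CLN1 and CLN2, the G1 cyclins that trigger budding, had higher means at 2 h than at 1 h and fell from 2 to 3 h in both treatments. CLN1 went from 28.5, 35.0 and 41.6 TPM at 1 h to 73.5, 66.0 and 63.0 TPM at 2 h and 32.2, 29.9 and 40.4 TPM at 3 h in vehicle. With Myr the same hours gave 50.3, 51.6 and 40.2 TPM, 92.1, 84.0 and 93.2 TPM and 47.0, 40.5 and 36.7 TPM. The 2 h libraries stood above all those of 1 h and 3 h in both treatments. CLN1 rose by 0.94 (SE 0.17, adjusted p = 2.04e-05) log2 and then fell by 0.97 (SE 0.17, adjusted p = 0.0001) in vehicle, and with Myr it rose by 0.91 (SE 0.17, adjusted p = 3.9e-05) log2 and fell by 1.10 (SE 0.17, adjusted p = 9.11e-06). CLN2 measured 64.2, 64.2 and 59.8 TPM at 2 h, 28.8, 23.9 and 36.1 TPM at 3 h and 37.8, 67.4 and 71.2 TPM at 4 h in vehicle. With Myr CLN2 measured 82.6, 83.0 and 84.7 TPM, 42.9, 42.3 and 33.2 TPM and 82.0, 71.1 and 79.8 TPM at those hours. Vehicle 4 h library B was the single 4 h library that came near the 3 h values. CLN2 fell by 1.07 (SE 0.21, adjusted p = 0.000441) log2 to 3 h in vehicle and by 1.07 (SE 0.21, adjusted p = 0.000298) with Myr. It then rose by 0.93 (SE 0.21, adjusted p = 0.00363) log2 to 4 h in vehicle and by 0.97 (SE 0.21, adjusted p = 0.00246) with Myr, while the CLN1 step to 4 h was not called in either treatment (0.44 (SE 0.17, adjusted p = 0.0888) and 0.36 (SE 0.17, adjusted p = 0.275)). Without vehicle 4 h library D the adjusted p of the CLN2 rise in vehicle was 0.054. The smaller vehicle rise of CLN2 from 1 to 2 h, 0.55 (SE 0.21, adjusted p = 0.0272) log2, was lost on leaving out 1 h library A or B or 2 h library A or C, with adjusted p up to 0.0933, and with Myr that step was 0.40 (SE 0.21, adjusted p = 0.113) log2.

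PCL1, the G1 cyclin of Pho85, was the most abundant of the 10 transcripts at most hours and fell from 2 to 3 h in both treatments. It measured 96.2, 105 and 122 TPM at 1 h, 151.1, 156 and 152 TPM at 2 h and 60.5, 52.1 and 69.4 TPM at 3 h in vehicle, and 158, 161 and 130.2 TPM, 179, 175 and 184 TPM and 77.4, 69.0 and 63.8 TPM with Myr. The fall from 2 to 3 h, -1.33 (SE 0.16, adjusted p = 2.23e-07) log2 in vehicle and -1.35 (SE 0.16, adjusted p = 1.28e-07) with Myr, was the largest of any member at that step in either treatment. In vehicle PCL1 rose before it by 0.51 (SE 0.16, adjusted p = 0.00758) log2, where the Myr step was 0.26 (SE 0.16, adjusted p = 0.178), and with Myr it rose after it, from 3 to 4 h, by 0.54 (SE 0.16, adjusted p = 0.037). That last call was lost on leaving out any of Myr 3 h libraries B and C and Myr 4 h libraries A, B and C, with adjusted p up to 0.169.

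CLB6 and CLB5, the S-phase cyclins, rose in the first hour and fell from 2 to 3 h. CLB6 went from 6.89, 12.2 and 10.4 TPM at 0 h to 28.9, 30.4 and 33.5 TPM at 1 h in vehicle, and from 4.91, 4.89 and 6.60 TPM to 52.1, 54.5 and 40.5 TPM with Myr. Its rise was 1.59 (SE 0.16, adjusted p = 2.46e-11) log2 in vehicle and 2.95 (SE 0.16, adjusted p = 1.76e-18) with Myr, the largest step of any member in both treatments. It then stood at 25.5, 26.3 and 26.2 TPM at 2 h and 11.3, 11 and 13.5 TPM at 3 h in vehicle, with no overlap, and at 36.5, 33.8 and 34.5 TPM and 17.1, 15.8 and 14 TPM with Myr. The fall between those hours was -1.07 (SE 0.16, adjusted p = 7.6e-06) log2 and -1.11 (SE 0.16, adjusted p = 2.36e-06) with Myr, and a rise to 4 h followed, 0.62 (SE 0.16, adjusted p = 0.00881) and 0.69 (SE 0.16, adjusted p = 0.00402). The vehicle rise to 4 h was lost on leaving out 3 h library A or B or 4 h library C or D, with adjusted p up to 0.132. With Myr, CLB6 also fell from 1 to 2 h (-0.47 (SE 0.16, adjusted p = 0.0138) log2, lost without Myr 1 h library A or B, adjusted p up to 0.074) and from 4 to 5 h (-0.54 (SE 0.16, adjusted p = 0.00693)). The vehicle values for those steps were -0.24 (SE 0.16, adjusted p = 0.195) and -0.34 (SE 0.16, adjusted p = 0.379) log2, and the differences between treatments in these steps were not called. CLB5 also rose in the first hour and fell from 2 to 3 h, by smaller steps, and its step to 4 h was not called in either treatment (0.44 (SE 0.15, adjusted p = 0.0559) log2 in vehicle and 0.43 (SE 0.15, adjusted p = 0.0968) with Myr). It fell from 27.7, 28.7 and 27.2 TPM at 2 h to 16.4, 15.8 and 19.4 TPM at 3 h in vehicle (-0.67 (SE 0.15, adjusted p = 0.00183) log2), and from 32.2, 33.3 and 33.1 TPM to 20.4, 21.3 and 18.2 TPM with Myr (-0.69 (SE 0.15, adjusted p = 0.000841)). Its rise from 0 to 1 h was 1.08 (SE 0.15, adjusted p = 4.97e-08) log2 with Myr and 0.41 (SE 0.15, adjusted p = 0.0132) in vehicle, the latter lost without vehicle 0 h library A or 1 h library C (adjusted p up to 0.242).

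Of the cyclins of spindle formation, CLB4 rose over the first hours in both treatments, and CLB3 had no called step in vehicle and 2 with Myr. CLB4 rose from 7.46, 6.57 and 7.30 TPM at 0 h to 9.73, 11.1 and 11.9 TPM at 1 h and 16.5, 17.4 and 17.8 TPM at 2 h in vehicle, and from 7.92, 5.80 and 7.57 TPM to 12.3, 12.2 and 11.2 TPM and 24.4, 21.4 and 22.6 TPM with Myr. No library of one hour overlapped with those of the next over these steps. The rises were 0.55 (SE 0.12, adjusted p = 7.57e-05) and 0.62 (SE 0.12, adjusted p = 4.74e-05) log2 in vehicle and 0.68 (SE 0.12, adjusted p = 3.03e-06) and 0.88 (SE 0.12, adjusted p = 2.25e-07) with Myr. From 3 to 6 h CLB4 stayed between 10.8 and 18.1 TPM in vehicle and between 14.7 and 18.8 TPM with Myr. A fall from 2 to 3 h was called with Myr (-0.35 (SE 0.12, adjusted p = 0.0349) log2) and lost without Myr 2 h library A or C or Myr 3 h library A or C, with adjusted p up to 0.155. CLB3 lay between 24.8 and 41.4 TPM over 1 to 6 h in vehicle. With Myr CLB3 rose in both of the first steps, by 0.46 (SE 0.13, adjusted p = 0.00144) and 0.43 (SE 0.13, adjusted p = 0.00552) log2, to 49.7, 50.9 and 54.0 TPM at 2 h.

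CLB1 and CLB2, the mitotic cyclins, stood higher at 3 h than at 2 h in every library, the step in which CLN1, CLN2, PCL1, CLB5 and CLB6 fell. CLB2 measured 8.06, 8.82 and 8.53 TPM at 0 h, 19.4, 20.8 and 25.4 TPM at 1 h, 31.4, 30.1 and 23.4 TPM at 2 h and 54.1, 62.1 and 61.6 TPM at 3 h in vehicle. With Myr it measured 13.6, 10.8 and 12.6 TPM, 20.4, 21.1 and 16.4 TPM, 41.9, 42.8 and 45.9 TPM and 80.0, 78.2 and 69.2 TPM. The vehicle rise was spread as 1.26 (SE 0.12, adjusted p = 5.09e-12) log2 to 1 h, 0.36 (SE 0.12, adjusted p = 0.00977) to 2 h and 1.05 (SE 0.12, adjusted p = 4.65e-08) to 3 h, with the middle step lost without vehicle 1 h library A or 2 h library A (adjusted p up to 0.0702). With Myr the same steps were 0.60 (SE 0.12, adjusted p = 1.71e-05), 1.14 (SE 0.12, adjusted p = 1.05e-09) and 0.78 (SE 0.12, adjusted p = 5.84e-06) log2. CLB1 reached 75.7, 76.0 and 88.8 TPM at 3 h in vehicle from 50.3, 51.7 and 50.6 TPM at 2 h, and 102, 97.4 and 97.5 TPM from 69.5, 71.0 and 73.1 TPM with Myr, with no overlap between the hours. The CLB1 step to 3 h was 0.64 (SE 0.18, adjusted p = 0.0137) log2 in vehicle, where it was lost without 3 h library D (adjusted p = 0.0591), and 0.47 (SE 0.18, adjusted p = 0.0655) with Myr, which missed the threshold. The CLB1 step from 1 to 2 h was 0.51 (SE 0.18, adjusted p = 0.0159) log2 in vehicle, lost without 1 h library A or B (adjusted p up to 0.0629), and 1.21 (SE 0.18, adjusted p = 1.2e-06) with Myr. Both genes fell to 4 h. CLB1 dropped to 35.2, 53.5 and 50.1 TPM in vehicle and 52.2, 40.5 and 47.0 TPM with Myr (-0.80 (SE 0.18, adjusted p = 0.00332) and -1.08 (SE 0.18, adjusted p = 9.1e-05) log2). CLB2 dropped to 38.1, 45.9 and 48.5 TPM in vehicle and 47.4, 37.8 and 46.3 TPM with Myr (-0.42 (SE 0.12, adjusted p = 0.0169) and -0.78 (SE 0.12, adjusted p = 1.88e-05) log2), and the vehicle call was lost without 3 h library B (adjusted p = 0.0966). From 4 to 5 h CLB2 rose again with Myr (0.41 (SE 0.12, adjusted p = 0.00599) log2), a call lost without Myr 4 h library B (adjusted p = 0.0701).

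Over the 6 steps between consecutive hours, 23 changes of a member were called in vehicle and 30 with Myr. At the first step 5 members rose in vehicle and 9 with Myr, where 29.3% and 27.2% of all genes rose and 52.6% and 55.6% fell. The median of all genes at that step was -0.38 log2 in vehicle and -0.48 with Myr, and no cyclin was called lower. From 1 to 2 h 6 members rose and 1 fell in vehicle (19.5% and 34.9% of genes), and 5 rose and 2 fell with Myr (26.6% and 20.2%). The step from 2 to 3 h split the members. In vehicle CLB1 and CLB2 rose, where 5.05% of all genes did, and 5 members fell, where 6.03% did. With Myr CLB2 rose and 6 fell (11.1% and 6.02%). From 3 to 4 h the directions were exchanged for several members, with CLB1 and CLB2 lower and CLN2 and CLB6 higher in vehicle (1.07% and 8.62% of genes), joined by PCL1 on the higher side with Myr (1.47% and 3.89%). After 4 h vehicle had no call (adjusted p under 0.05 by limma) in either step (1.24% of genes rose and 0.552% fell from 4 to 5 h, 23.3% and 1.15% from 5 to 6 h), and at an unadjusted p under 0.05 the count was 2 at 4 to 5 h and 4 at 5 to 6 h. Myr had 2 calls from 4 to 5 h, CLB2 higher and CLB6 lower (31.6% and 4.76%), and none from 5 to 6 h by limma (2.94% and 1.52%), where the unadjusted count was 1. Median centring, in which the typical gene was set level in all libraries, gave 31 called changes in vehicle and 36 with Myr. It added 3 calls at each of 2 steps, and its gains at other steps were smaller. In vehicle from 0 to 1 h it gave 8 higher (43.5% of genes), with CLN2, CLN3 and CLB3 added, and with Myr from 4 to 5 h it gave 1 higher and 4 lower (24.5% and 18% of genes), with CLN2, CLB3 and CLB5 added on the lower side. The vehicle counts depended on single libraries and on the setting. Without 4 h library B, CLB6 and PCL1 were called from 4 to 5 h, and PCL1 was called lower there after median centring (2.69% of genes). CLB2 was called from 5 to 6 h without 6 h library A. It was also called there with a pseudocount of 10 and with the column letter as a random block. Without the 4 libraries of high RPL41A, which left 1 vehicle library at 3 h, the step from 3 to 4 h had 1 call, CLB6, in place of 4, and without 4 h library B alone, or 3 h library D alone, it had 7.

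**Figure D2:**
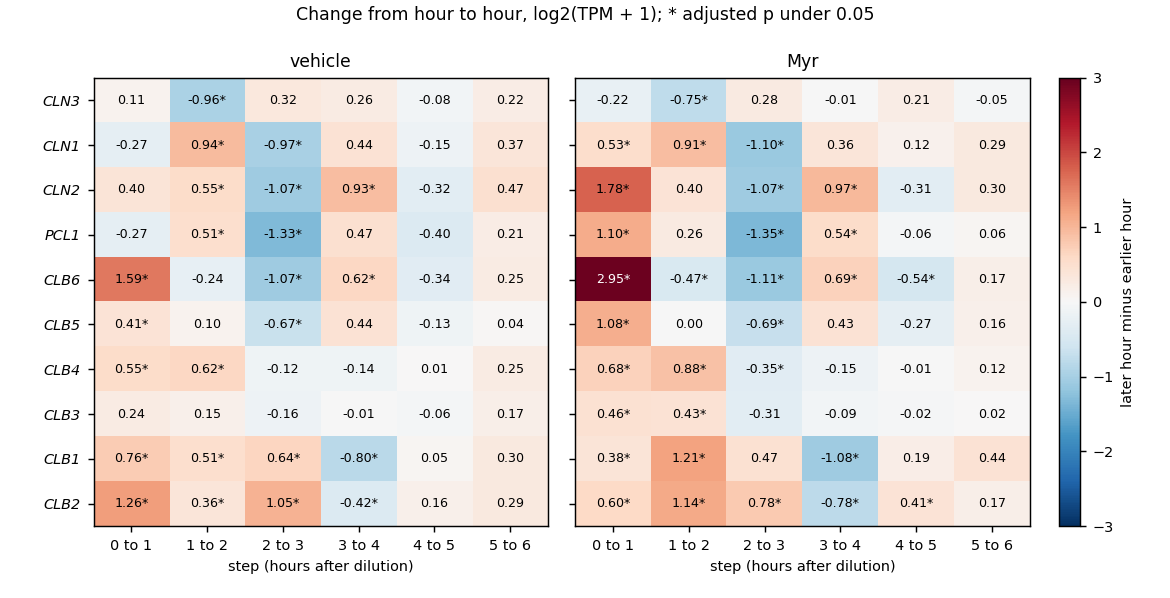
Change of each cyclin from one hour to the next in log2(TPM + 1), as a heatmap with genes in rows and the 6 steps in columns for vehicle and Myr, with an asterisk where the adjusted p is under 0.05. From 2 to 3 h the CLB1 and CLB2 cells are of one colour and those of CLN1, CLN2, PCL1, CLB5 and CLB6 of the other, and from 3 to 4 h the colours of CLB1, CLB2, CLN2 and CLB6 are exchanged.

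In order of level from 1 to 6 h, PCL1 led at 1, 2, 5 and 6 h in vehicle and at 1, 2, 4, 5 and 6 h with Myr, and its libraries did not overlap with those of the next gene there. PCL1 also had the highest mean in vehicle at 4 h, 85.9 TPM, where its libraries overlapped with those of CLN2 (mean 58.8 TPM). At 3 h CLB1 led in both treatments, at 80.2 ± 7.47 TPM in vehicle and 98.9 ± 2.48 TPM with Myr (mean ± SD of 3 libraries), again without overlap with the next gene. CLB4 or CLB6 was lowest at every hour from 1 to 6 h in both treatments. In the middle of the order neighbours overlapped, and in vehicle at 4 h every neighbouring pair did, with library B low for all members.

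Ratios of a pair of members within a library do not depend on how the library was scaled, and these were computed as a description, with no test. The ratio of CLN2 to CLB2, an early against a late cyclin, was 0.99, 0.94 and 0.98 log2 in the vehicle libraries at 1 h and 1.80, 1.67 and 1.66 log2 in those with Myr. At 3 h it was -0.91, -1.37 and -0.77 log2 in vehicle and -0.90, -0.89 and -1.06 log2 with Myr. In mean fold terms CLN2 thus went from 1.96 times CLB2 to 0.494 times in vehicle and from 3.27 to 0.518 times with Myr, and by 6 h both treatments were near equality at 1.05 and 1.17. The Myr libraries lay above the vehicle ones at 1, 4 and 6 h, below them at 0 and 2 h, and among them at 3 and 5 h. The convergent neighbours CLB6 and CLB1 had the ratio -0.18, -0.096 and -0.33 log2 at 1 h in vehicle and 0.68, 0.83 and 0.55 log2 with Myr. At 3 h the 6 libraries of both treatments fell within -2.80 to -2.58 log2. The widest separation of the treatments in this ratio was therefore at 0 h and 1 h, in opposite directions, with -0.83, -1.33 and -1.13 log2 in vehicle and -2.03, -2.10 and -2.12 log2 with Myr at 0 h.

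**Figure D3:**
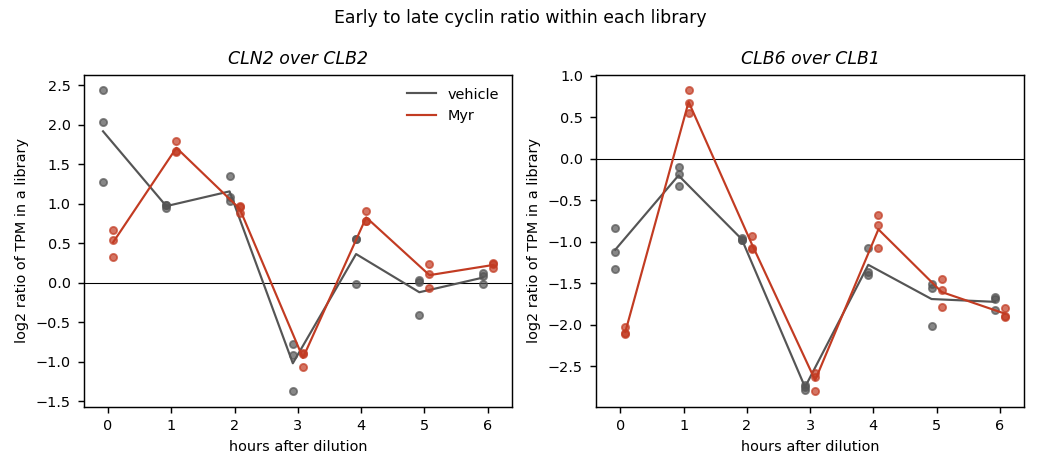
Ratio of CLN2 to CLB2 and of CLB6 to CLB1 within each library, as log2 of the TPM ratio (vertical axes) against hours (horizontal axes), vehicle in grey and Myr in red, 1 point for each library. The Myr points lie below the vehicle points at 0 h and above them at 1 h, and the points of both treatments mix at 3 h.

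At 0 h the cultures with Myr and vehicle already differed in 5 cyclins. PCL1 measured 96.9, 149 and 149 TPM in vehicle and 66.8, 56.1 and 87 TPM with Myr, CLN2 19.5, 48.1 and 35.0 TPM and 17.1, 15.9 and 20.1 TPM, and CLB6 6.89, 12.2 and 10.4 TPM and 4.91, 4.89 and 6.60 TPM. All 3 PCL1 libraries and all 3 CLB6 libraries with Myr lay below those of vehicle, as 7.71% of genes did, while for CLN2 vehicle library A, at 19.5 TPM, fell among the Myr values. The log2 differences, Myr minus vehicle, were -0.90 (SE 0.16, adjusted p = 0.000312) for PCL1, -0.83 (SE 0.21, adjusted p = 0.00947) for CLN2 and -0.72 (SE 0.16, adjusted p = 0.00248) for CLB6. CLB2 was higher with Myr at 13.6, 10.8 and 12.6 TPM against 8.06, 8.82 and 8.53 TPM, without overlap (as for 14.7% of genes), by 0.49 (SE 0.12, adjusted p = 0.00529) log2. CLN3 was higher by 0.63 (SE 0.20, adjusted p = 0.0333) log2, with overlapping libraries. Of all genes 8.26% were called higher and 3.63% lower at this hour, and the median of all genes was 0.07. After median centring 2 members were higher and 6 lower (13.1% and 13.7% of genes), with CLN1, CLB3 and CLB5 added on the lower side. The call of CLN2 was lost without vehicle library B (adjusted p = 0.15), and that of CLN3 without vehicle library B or Myr library B or C (adjusted p up to 0.445). Without vehicle library A 7 members were called. No member was called when the 6 libraries of 0 h were fitted on their own. None was called after scaling to the spike-ins either, but vehicle received spike-in mix 1 and Myr mix 2 and each treatment was scaled to its own mean at 0 h, so that setting changes the spread of the libraries at this hour and hardly the difference between treatments (all-gene median of 0.073 against 0.071 log2). Stationary phase markers summed to 12439 to 22161 TPM in vehicle and 12078 to 14361 TPM with Myr at this hour, and their part in the result was not tested.

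At 1 h the order was turned for CLB6, CLN2 and PCL1, which stood above vehicle without overlap, as 8.96% of all genes did. CLB6 measured 28.9, 30.4 and 33.5 TPM in vehicle and 52.1, 54.5 and 40.5 TPM with Myr, a difference of 0.64 (SE 0.14, adjusted p = 0.00247) log2, the call that every omission of a library kept. PCL1 measured 96.2, 105 and 122 TPM and 158, 161 and 130.2 TPM (0.47 (SE 0.13, adjusted p = 0.0323) log2), and its call was lost without library A or B of either treatment at this hour (adjusted p up to 0.198). CLN2 measured 38.4, 40.0 and 50.2 TPM and 71.2, 67.1 and 51.9 TPM and missed the threshold (0.55 (SE 0.17, adjusted p = 0.0579) log2). These 2 calls of 10 stood against 2.42% of all genes called higher, with an all-gene median of 0.01 and a median over the members of 0.32 log2. CLB1 and CLB2 pointed the other way without a call, at -0.22 (SE 0.12, adjusted p = 0.388) and -0.17 (SE 0.12, adjusted p = 0.599) log2. After median centring 6 members were called higher (CLN1, CLN2, CLN3, CLB5, CLB6 and PCL1, against 8.18% of genes) and CLB1 lower (-0.21 log2, against 4.94%). Leaving out vehicle library C gave 4 calls at this hour, and leaving out Myr library C gave 5. Without the 4 libraries of high RPL41A, none of them from this hour, 5 were called at 1 h.

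At 2 h all 10 cyclins stood above vehicle in every Myr library, as did 53.4% of all genes, and 7 were called against 16% of genes. CLB2 differed most. CLB2 measured 31.4, 30.1 and 23.4 TPM in vehicle and 41.9, 42.8 and 45.9 TPM with Myr, and CLB1 50.3, 51.7 and 50.6 TPM and 69.5, 71.0 and 73.1 TPM. CLB2 was higher by 0.61 (SE 0.12, adjusted p = 0.002) log2 and CLB1 by 0.48 (SE 0.12, adjusted p = 0.0135). CLN3 (0.51 log2), CLB6 (0.41), CLN1 (0.41), CLB3 (0.40) and CLB4 (0.39) were called with adjusted p of 0.0216 to 0.0482. The members had a median of 0.41 log2 and all genes one of 0.20. CLB2 was the call that held with any of the 6 libraries left out, and CLB1 lost its call without Myr library C (adjusted p = 0.0614). Without Myr library C 1 member was called, without vehicle library C or D or Myr library A 2, without Myr library B 3 and without vehicle library A 4. After median centring the same calls less those of CLN1 and CLB4 were made, 5 in all (9.67% of genes).

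From 3 h on, at most 4 members were called at an hour. At 3 h CLN3, CLB1, CLB2 and CLB6 were called higher (0.46, 0.30, 0.35 and 0.36 log2, adjusted p of 0.0213 to 0.0413), against 39.4% of all genes and an all-gene median of 0.27, and these were also the 4 without overlap (42.6% of genes). Leaving out any of libraries A and B of vehicle or of Myr at 3 h left no call, leaving out vehicle library D gave 7, and there was none after median centring (4.88% of genes higher) or without the 4 libraries of high RPL41A. At 4 h no member was called by limma, where 6.12% of genes were higher, while CLB6, CLN2 and PCL1 had an unadjusted p under 0.05. CLB6 came closest (0.43 (SE 0.14, adjusted p = 0.0509) log2). Without vehicle 4 h library C or D, or after median centring (5.68% of genes), CLN2 and CLB6 were called at this hour. At 5 h PCL1, CLN3, CLN1 and CLN2 were called higher. The Myr libraries of the mitotic cyclins CLB1 and CLB2 also stood wholly above vehicle at this hour, without a call. PCL1 measured 51.9, 68.4 and 71.6 TPM in vehicle and 93.6, 99.7 and 99.9 TPM with Myr (0.62 (SE 0.13, adjusted p = 0.000417) log2), and CLN3 measured 39.9, 44.0 and 52.3 TPM and 60.8, 60.9 and 70.4 TPM (0.49 (SE 0.14, adjusted p = 0.00501)). CLN1 was higher by 0.47 (SE 0.14, adjusted p = 0.00743) log2, and CLN2 by 0.45 (SE 0.17, adjusted p = 0.0271), a call lost without vehicle library A or Myr library C (adjusted p up to 0.18). These 4 calls stood against 52.2% of genes called higher and an all-gene median of 0.31 log2, above the median of the members, 0.24. Relative to that shift, PCL1 was higher after centring (0.29 log2, as 23.2% of genes were) and CLB4 and CLB5 lower (-0.18 and -0.25 log2, as 21.3% of genes were). CLN1, CLN2 and CLN3 were not called at 5 h after centring. At 6 h PCL1, at 71.0, 79.1 and 71.3 TPM in vehicle and 103, 97.5 and 105 TPM with Myr, and CLN1, at 50.6, 54.6 and 57.0 TPM and 76.1, 63.5 and 74.4 TPM, were called (0.46 (SE 0.13, adjusted p = 0.0128) and 0.39 (SE 0.14, adjusted p = 0.0492) log2, against 19.6% of genes), and the same pair was called after centring (17.5% of genes). Myr libraries stood clear above vehicle for 2 members at 4 h (16.7% of genes) and for 6 at 5 h (64.7%) and at 6 h (43.8%). Without vehicle 6 h library A neither was called, and CLN1 was also lost without vehicle library B or C or Myr library A or C (adjusted p up to 0.172). Stationary phase markers summed to 111 to 114 TPM in vehicle and 401 to 487 TPM with Myr at 5 h, and to 159 to 173 TPM and 751 to 1264 TPM at 6 h. The sum leans on HSP12, which averaged 101 TPM in vehicle and 303 TPM with Myr over 1 to 6 h. SPG1, SPG5, SNZ1, SNO1 and GRE1 were higher with Myr by far fewer TPM. SPG4 (7.58 and 6.52 TPM) and SIP18 (18.7 and 16.4 TPM) were lower. The part of these markers in the results was not tested.

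**Figure D4:**
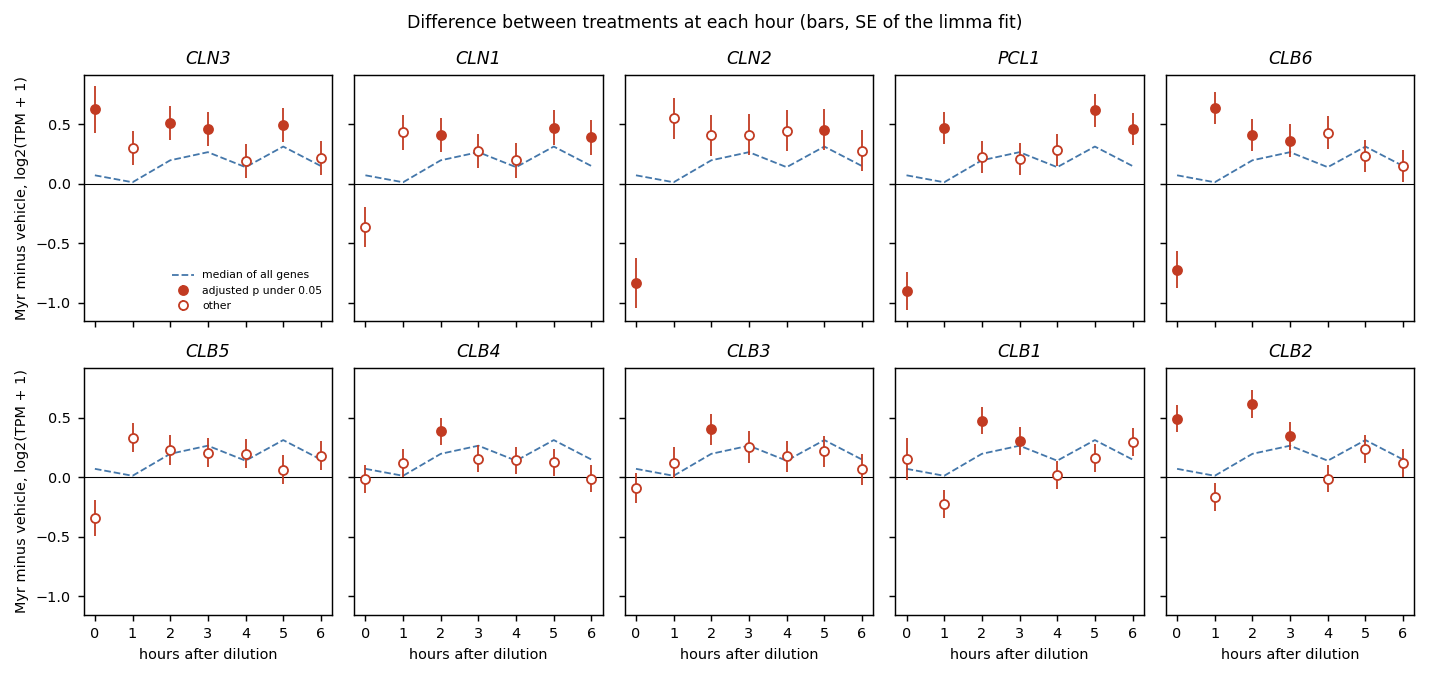
Myr minus vehicle for each cyclin at each hour in log2(TPM + 1) (vertical axes) against hours (horizontal axes), with bars for 1 SE, filled points where the adjusted p is under 0.05 and a dashed line at the median of all genes. CLN2, CLB6 and PCL1 lie below the line at 0 h and above it at 1 h, and the CLB2 and CLB1 points are below it at 1 h and above it at 2 h.

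Averaged over 1 to 6 h, every cyclin was higher with Myr (p of 0.01 or less), by 0.15 (CLB4) to 0.42 log2 (CLN2) with SE of 0.047 to 0.070, a call shared by 64.5% of all genes. CLB1 and CLB4 lost the call with the column letter as a random block, and also without the 4 libraries of high RPL41A, each setting leaving 8 members called. All genes had a median of 0.18 log2. After centring CLN2 (0.25 log2), CLB6 (0.20), PCL1 (0.20), CLN1 (0.19) and CLN3 (0.19) were called higher, as 25% of all genes were. The mitotic and spindle cyclins and CLB5 were not, and CLB1 and CLB4 came to -0.0052 and -0.016 log2. The gene for the kinase itself, CDC28, was higher by 0.28 log2 on average, with means of 78.8 TPM in vehicle and 82.6 TPM with Myr at 1 h, and of 44.9 TPM and 59.1 TPM at 5 h.

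Whether the course over the hours differed between treatments was tested directly. Over 1 to 6 h the interaction of treatment and hour was called by limma for CLB2 (adjusted p = 0.00749) and CLB1 (adjusted p = 0.0217), at a threshold of 0.01 on the unadjusted p that 22.6% of all genes reached. Their differences from vehicle went from -0.17 log2 at 1 h to 0.61 at 2 h for CLB2 and from -0.22 to 0.48 for CLB1. CLB1 lost the call without vehicle 1 h library C or Myr 1 h library C, PCL1 gained it without vehicle 4 h library B, and after median centring it was made for 8 members, against 34.4% of genes. By single steps, the rise of CLB2 from 1 to 2 h was larger with Myr by 0.78 (SE 0.16, adjusted p = 0.00509) log2, where 1.42% of genes were called larger. No step after 2 h was called different by limma (1 had an unadjusted p under 0.05, CLB2 from 3 to 4 h), with the exception of PCL1 from 4 to 5 h when vehicle 4 h library B was left out.

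The first hour separated the treatments most, with 6 members differing in their step from 0 to 1 h where 2.42% of genes were called larger and 3.81% smaller with Myr. CLN2 rose from a mean of 17.7 TPM to 63.4 TPM with Myr and went from 34.2 TPM to 42.9 TPM in vehicle. PCL1 rose from 70.0 TPM to 149.8 TPM with Myr and went from 132 TPM to 108 TPM in vehicle. CLB6 rose from 5.47 TPM to 49.0 TPM with Myr and from 9.83 TPM to 30.9 TPM in vehicle. The steps were larger with Myr by 1.38 (SE 0.30, adjusted p = 0.00275) log2 for CLN2, 1.37 (SE 0.23, adjusted p = 9.68e-05) for PCL1 and 1.36 (SE 0.22, adjusted p = 7.52e-05) for CLB6. CLB2 was the exception, with a smaller step by -0.66 (SE 0.16, adjusted p = 0.0104) log2. These 4 calls held with any of the 12 libraries left out, and CLB2 was no longer called after spike-in scaling. CLN1 (0.80 (SE 0.24, adjusted p = 0.0373) log2) and CLB5 (0.68 (SE 0.21, adjusted p = 0.048)) were lost without any of vehicle 0 h library B, vehicle 1 h libraries A and B, Myr 0 h libraries A and B and Myr 1 h libraries A and B, and CLN1 also without vehicle 0 h library D (adjusted p up to 0.152 and 0.226). Both the 0 h and the 1 h level enter this step, and the 0 h differences above lay in the opposite direction to it for all 6 genes that were called.

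Genes that act with the cyclins were read from lists of the pathway, described by counts and medians. The lists were written with earlier results of these data known, so their counts are a description and not independent support. Some listed genes, such as BUD4, SWI5 and HST3, are also among those most like a cyclin in these data. Of 15 targets of SBF and MBF, 13 fell from 2 to 3 h in vehicle and 15 with Myr (6.03% and 6.02% of all genes), with medians of -0.93 and -0.89 log2 where all genes had -0.019 and 0.036. Among them RNR1, the large subunit of ribonucleotide reductase, fell by 1.26 with Myr, MCD1, a cohesin subunit, by 1.17 in vehicle and 1.15 with Myr, and POL30, the replication clamp, by 1.23 in vehicle, all in log2. At 0 h 7 of the 15 were lower with Myr, as 3.63% of genes were (median -0.39 log2 against 0.071 for all genes), led by TOS4 (-0.91), MCD1 (-0.90), POL30 (-0.88) and RNR1 (-0.81). In the step from 0 to 1 h 8 of the 15 rose more with Myr (2.42% of genes), by 1.36 log2 for POL30, 1.32 for MCD1, 1.26 for TOS4 and 1.24 for SVS1, with a median of 0.99 against -0.070 for all genes. At 1 h, where 2.42% of genes were called higher, 3 of the list were, GIC2, an effector of Cdc42 (0.66 log2), SVS1 (0.55) and POL30 (0.48).

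Of 16 genes of the CLB2 cluster and its factors, 12 rose from 2 to 3 h in each treatment, where 5.05% and 11.1% of all genes rose. They were led by CHS2, the chitin synthase of the septum (1.35 log2 in vehicle and 1.46 with Myr), KIN3 (1.25 and 1.80) and CDC20, an activator of the anaphase-promoting complex (1.23 and 1.49). From 3 to 4 h 10 fell with Myr and 1 in vehicle, where 1.47% and 1.07% of genes fell. These counts are not a difference between treatments, because the difference in this step was called for 3 of the 5983 genes. Vehicle 3 h libraries A and B and 4 h library B, all of high RPL41A, enter the vehicle step. With Myr ALK1 (-0.79 log2), HST3 (-0.71) and SWI5, a factor of late mitosis (-0.71), fell most. At 2 h 10 of the 16 were higher with Myr, as 16% of genes were (median 0.43 log2 against 0.20), led by NDD1, the coactivator of Mcm1 and Fkh2 (0.72), FKH2 (0.52) and CDC5, the polo kinase (0.50), and the same count stood after median centring (9.67% of genes), where 1 was lower.

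Of 10 genes that peak as mitosis ends (M/G1), 10 rose from 3 to 4 h in vehicle and 9 with Myr (8.62% and 3.89% of all genes), the hour at which CLB1 and CLB2 fell. EGT2 and DSE4, which act in the separation of daughter cells, rose by 1.49 and 1.37 log2 in vehicle, and CTS1, the chitinase, and SCW11 by 1.33 and 1.19 with Myr. At 0 h 8 of the 10 were higher with Myr (median 0.89 log2), and at 1 h again 8 (median 0.54), while at 6 h 6 were lower (median -0.48), where 8.26% and 2.42% of genes were higher and 3.43% lower. All genes had medians of 0.071, 0.013 and 0.15 log2 at those hours. DSE4 led at 0 h (1.39 log2), CTS1 at 1 h (0.98) and DSE1 at 6 h (-0.71).

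Among 10 regulators of the G1/S step, YOX1, a repressor that is itself an SBF target, was lower at 0 h with Myr (-0.80 log2), rose more in the first hour (1.43) and fell from 2 to 3 h in both treatments (-1.02 and -1.23). NRM1, the repressor that closes MBF transcription, rose from 1 to 2 h by 1.43 log2 in vehicle and 1.98 with Myr. At 2 h 16% of all genes were called higher with Myr, and all genes had a median of 0.20 log2. At that hour WHI3, which binds CLN3 mRNA, was higher with Myr by 0.72 log2, WHI5, the inhibitor of SBF, by 0.58 and NRM1 by 0.47. The genes named are the called ones of largest difference, so they do not describe the whole list. Of the 7 genes of Cdk1 and its direct partners, SIC1, the inhibitor of Clb-Cdc28, rose from 3 to 4 h by 0.81 log2 in vehicle and 0.38 with Myr. CDC28 itself was lower at 0 h with Myr (-0.54 log2) and rose more in the first hour (0.60). Of 10 genes for Pho85 and its other cyclins, 8 were higher with Myr at 5 h, led by PCL5 (1.39 log2), the cyclin through which Pho85 marks Gcn4 for destruction, and PCL2, the closest relative of PCL1, rose more in the first hour with Myr (0.99). The 12 genes of cyclin destruction had 9 members higher at 3 h and 6 higher and 1 lower at 5 h, and all 4 genes of cyclins that act in transcription were higher at 5 h, hours at which 39.4% and 52.2% of all genes were called higher.

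The genes most like each cyclin over the 12 group means of 1 to 6 h were found among the 4901 genes that averaged 10 TPM or more, by Pearson's r of log2(TPM + 1), as a description over points that share flasks. CLB2 was closest to BUD4, SWI5 and HST3 (r of 0.99 for each), and CLB6 to POL1 (0.99), EXO1 and DPB2 (0.98 each), where POL1 and DPB2 encode subunits of replicative polymerases and EXO1 an exonuclease. CLB5 was closest to RBH2 (0.98), PRI2 and POL30 (0.96 each), CLN2 to CTF4 (0.96), POL32 (0.95) and CDC9 (0.94), and PCL1 to YOX1 (0.97), PDS5 (0.96) and HIF1 (0.95). CLB4 was closest to SPC98 and CIN8, a spindle pole and a kinesin gene, and to SGO1 (0.97 each). CLN1 lay nearest to ASF2 (0.97), CSR1 and SBH1 (0.96 each), CLN3 to ASM4, NUP188 and STE5 (0.96 each), CLB3 to YHR214W (0.95, an open reading frame with near-identical copies, so its level is uncertain), MSB1 (0.95) and RAP1 (0.93), and CLB1 to NUF2 (0.88), ATP20 and FRK1 (0.87 each). Within the set, CLB5 and CLB6 were most alike (0.95), CLN1 and CLN2 had 0.86, CLB1 and CLB2 0.83, and CLN3 reached no more than 0.36 with any other cyclin. Matched to fixed templates of rise, drop, spike or dip, 10 of the 20 profiles (each gene in each treatment) reached a correlation of 0.85, among them a drop after 2 h for CLB6 (0.88 in vehicle and 0.89 with Myr) and for PCL1 (0.89 in each), and a step up for CLB2, after 2 h in vehicle cultures (0.94) and after 1 h in Myr cultures (0.89). On means of TPM the CLB2 profile with Myr came to 0.78, below 0.85, and that in vehicle to 0.91.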

How the data were processed

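Per the labels and the study's methods, poly(A) RNA libraries (TruSeq Stranded mRNA) with spike-ins were sequenced, demultiplexed (bcl2fastq 2.17.1.14), trimmed (Trimmomatic 0.36) and quantified with Salmon 0.8.2 (sequence and GC bias correction) against R64 transcripts with 92 spike-ins. The authors deposited TPM, a share of 1000000 that includes the spike-ins, so a few abundant transcripts lower all others. The table held 6198 rows and 42 library columns, 0 of them unused; 6103 gene identifiers matched the R64 annotation. Depth is not given, so no counting error could be computed.

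log2(TPM + 1) was fitted with limma 3.58.1 (R 4.3.3, variance trend on the mean) on the 5983 genes that averaged 1 TPM or more across 36 libraries (1 to 6 h). Time, treatment and interaction were called at p of 0.01 or less, as in the study, and contrasts of 12 groups (1 to 6 h) or 14 groups (0 h, steps) at a Benjamini-Hochberg adjusted p under 0.05. Scripts were tested on simulated data. Alternatives changed the pseudocount (0.1, 10), filter, scaling, trend, libraries and column-letter block. The members and gene lists were chosen with earlier results of these data known. Named genes are the members, CDC28, up to 4 called genes of largest difference in each list, the 3 genes most like each member, and RPL41A. Sequences and motifs were read from R64 with Biopython 1.88 (Python 3.11.15, numpy 2.4.6, pandas 2.3.3, matplotlib 3.10.9).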

Additional observations from a re-analysis of the deposited data

Results flagged for a closer look

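These results stood out because the course of a gene over the hours differed between vehicle and Myr by a test of the difference itself. The interaction of treatment and hour over 1 to 6 h had an adjusted p = 0.0217 for CLB1 and an adjusted p = 0.00749 for CLB2 by limma. From 0 to 1 h the change with Myr was larger than in vehicle by 0.797 log2 for CLN1, 1.38 for CLN2, 0.675 for CLB5, 1.36 for CLB6 and 1.37 for PCL1, and smaller for CLB2, at -0.662. From 1 to 2 h the CLB2 change was larger with Myr by 0.783 log2. The median of all genes for these steps was -0.070 and 0.18 log2.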

How the results depend on the processing

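No paired analysis was possible because the columns carry letters (4 in vehicle, 3 with Myr) that no source ties to replicate numbers or flasks. The column letter as a random block gave a consensus correlation of 0.18 (12 groups) or 0.172 (14 groups), with 18 hourly calls of members in place of 19 and 8 members with an average Myr effect in place of 10 (CLB1 and CLB4 lost). That block gave 25 called steps in vehicle in place of 23, and 32 with Myr in place of 30. Median centring took the members with an average Myr effect from 10 to 5, those with an interaction from 2 to 8 and those called at 0 h from 5 to 8, with CLB1 and CLB4 at -0.0052 and -0.016 log2 on average and CLB4 and CLB5 at -0.18 and -0.25 log2 at 5 h. Vehicle and Myr received different spike-in mixes (1 and 2), and the scaling set each library to the mean of its own treatment at 0 h, so it cannot speak to differences at 0 h, and later values are relative to 0 h. It took the median of all genes from 0.18 to 0.78 log2 on average over 1 to 6 h and gave 53 hourly calls in place of 19, 0 at 0 h and 4 step differences in place of 7. It turned CLB2 at 4 h to 0.63 log2 and the steps from 0 to 1 h to 0.98 (CLN1) and 1.00 (PCL1) in vehicle and 1.44 (CLN3) with Myr. Fitting 0 h on its own 6 libraries gave 0 calls, and leaving out the 4 libraries of high RPL41A gave 4 interactions, 8 average Myr effects, and 5 calls at 1 h in place of 2, 10 at 2 h in place of 7 and 0 at 3 h in place of 4. Apart from median centring, the share of all genes called was not computed under these alternatives or the omissions of libraries. Changed counts of members, here and above, are therefore not a result about the cyclins as against other genes. The cause of these changes was not tested. Leaving out each library in turn (42 fits) gave 9 to 10 members with a time effect, 10 to 10 with a Myr effect, 1 to 3 with an interaction, 12 to 26 hourly calls (fewest without Myr 2 h library C, most without vehicle 4 h library B), 3 to 7 calls at 0 h, 21 to 32 vehicle steps, 27 to 30 Myr steps and 5 to 8 step differences. Of 2940 single values under these omissions 111 lost and 35 gained a call and 0 reversed. Other pseudocounts, no filter and no variance trend moved at most 5 of 280 single values across the threshold each. On TPM means 9 of 20 profiles reached a template, against 10. With 3 libraries a group and no read counts, the precision of a single hour rests on the spread shared by all groups.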
